A study of Mus musculus with 2 samples.

Results

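Fstl4, Adamts19, Rgs6, Hpse2, Pde1a, Tmem132c, Pcdh15, Cygb and Aard are 9 of the 32285 genes counted in single-cell RNA sequencing of mouse cerebella at E16.5. They were selected on their raw UMI sums (unique molecular identifiers, the molecules counted per gene and cell), which were high in the library from mutant animals, and because none stood on the list of Wnt signalling genes. The mutant animals were Blbp-cre with Ctnnb1(ex3)fl/wt and Smarca4fl/fl and had lesions of the cerebellum, and the control animals carried no cre. In the mutant, cre driven by the Blbp promoter (Blbp is Fabp7, made by radial glia and other neural progenitors) removes exon 3 from 1 allele of Ctnnb1 and the floxed part of both alleles of Smarca4 in the cells that express it and in their descendants, so each mutant cerebellum also holds cells that never had cre. Whole cerebella were dissociated, dead cells were sorted out, and 3 samples of each genotype were pooled into 1 droplet library. There was therefore 1 library per genotype, no difference between genotypes could be tested, and all intervals below are exact 95% intervals that cover counting error only.

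Exon 3 of Ctnnb1 encodes the residues whose phosphorylation marks β-catenin for destruction, so its loss leaves a stable protein that drives transcription through TCF and LEF factors. Smarca4 encodes the ATPase BRG1 of the SWI/SNF chromatin remodelling complex, and mutations of both genes recur in human WNT medulloblastoma. The 9 genes belong to no single pathway. Fstl4 and Adamts19 encode secreted proteins, a follistatin-like glycoprotein related to SPARC and a metalloprotease of the ADAMTS family. Hpse2 encodes heparanase 2, also secreted, which binds heparan sulphate without cleaving it. Rgs6 encodes an R7 regulator of G protein signalling, a GTPase-activating protein for inhibitory G alpha subunits, and Pde1a a calmodulin-dependent phosphodiesterase that breaks down cyclic nucleotides. Tmem132c and Pcdh15 encode membrane proteins, the second a protocadherin of the tip links of hair cells. Cygb encodes cytoglobin, a cytoplasmic globin, and Aard a small protein rich in alanine and arginine.

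After filtering, the mutant library held 15584 cells (median 9641 UMIs per cell) and the control library 15793 cells (median 9963 UMIs). The libraries shared 123 cell barcodes, 61 of them among kept cells. Smarca4 stood at 49.2 CPM (counts scaled to 1000000 UMIs) in the mutant library and at 67.9 CPM in the control library, a ratio of 0.725 (0.704 to 0.745), and Ctnnb1 at 172 CPM in the mutant library and 118 CPM in the control library. The 3′ tags counted here do not show whether exon 3 of Ctnnb1 is absent. Haemoglobin genes took 8.86% of the UMIs of kept mutant cells and 7.57% of those of kept control cells.

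Since the members were chosen by it, the difference between libraries is given as a description. Fstl4 had 91656 UMIs in the mutant library, which is 545 CPM (542 to 549), and 943 UMIs in the control library, which is 5.46 CPM (5.12 to 5.82), a ratio of 99.8. Adamts19 stood at 199 CPM in mutant cells and 5.62 CPM in control cells, a ratio of 35.5. Hpse2 stood at 49.9 CPM in mutant cells and 1.44 CPM in control cells, a ratio of 34.6. The interval of Hpse2 (30.5 to 39.4) overlapped that of Adamts19 (33.3 to 37.9), so of these secreted members Fstl4 alone stood apart. Rgs6 stood at 298 CPM in mutant cells and 10.0 CPM in control cells, and Pde1a at 167 CPM in mutant cells and 9.45 CPM in control cells, ratios of 29.7 and 17.7. Cygb was at 130 CPM in mutant cells and 11.4 CPM in control cells (ratio 11.3), and Tmem132c at 437 CPM in mutant cells and 43.1 CPM in control cells (ratio 10.1). Pcdh15 was at 836 CPM in mutant cells and 88.3 CPM in control cells, a ratio of 9.47. Aard had the narrowest ratio, 3.58, from 74.4 CPM in mutant cells and 20.8 CPM in control cells. All 9 members were at least 2-fold higher (ratio of mutant + 1 CPM over control + 1 CPM), which held for 4.19% of the 9789 genes that reached 10 CPM in at least 1 library, and 2.06% of those genes were at least 2-fold lower. This count is fixed by the choice of members and nothing is read from it.

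**Figure D1:**
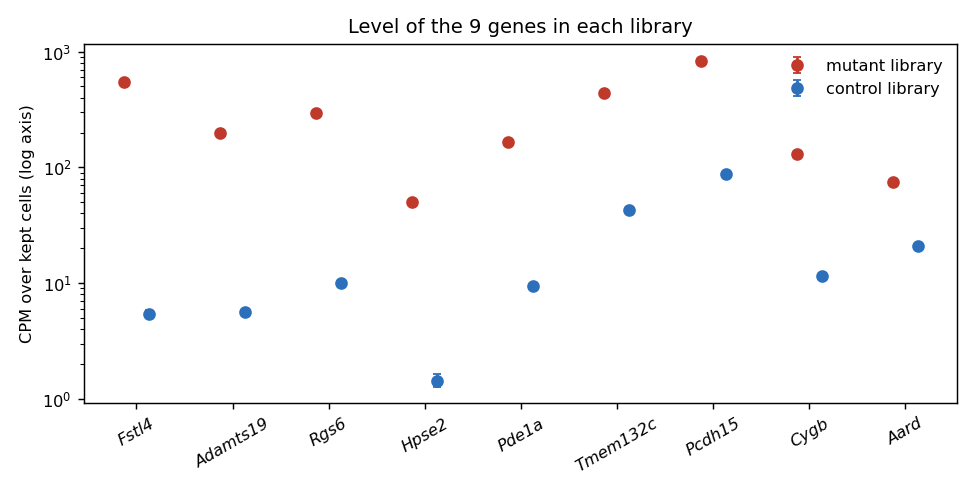
Level of each member in the mutant and the control library, in CPM on a log axis, over all kept cells, with exact 95% Poisson intervals that are mostly smaller than the points. Fstl4 lies farthest apart, at 545 CPM in the mutant library against 5.46 CPM in the control one, and Aard nearest, at 74.4 and 20.8 CPM.

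By this ratio Fstl4 ranked 2 of the 9789 genes, Adamts19 ranked 3, Rgs6 ranked 5, Hpse2 ranked 6 and Pde1a ranked 8, while Cygb ranked 14, Tmem132c 17, Pcdh15 21 and Aard 160. The gene at rank 1 was Wif1, a secreted Wnt inhibitor of the Wnt list, at 298 CPM in mutant cells and 2.37 CPM in control cells. The members therefore did not form a group apart from other genes: non-members of the same ratio lay between them, and the selection had no threshold of its own.

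The 9 genes lie on 8 chromosomes of the GRCm38 assembly (GENCODE M21 annotation), and all are protein coding. Fstl4 spans chr11:52764634-53188538 on the plus strand, Hpse2 chr19:42786539-43388355 on the minus strand and Pde1a chr2:79834453-80129458 on the minus strand. Rgs6 spans chr12:82588292-83162056, Tmem132c chr5:127241808-127565793 and Pcdh15 chr10:73099342-74649737, all on the plus strand. Cygb, at chr11:116645595-116654313 on the minus strand, and Aard, at chr15:52040107-52045722 on the plus strand, are short genes of 8.72 kb and 5.62 kb. The other 7 members were longer than 100 kb (7 of 9, 77.8%), as were 46.4% of the 401 other genes at least 2-fold higher and 19.5% of all tested genes. Gene length was not used by the selection, and its part in the level was not tested.

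RefSeq promoter windows (GRCm38.p6, 250 bases before to 50 after a transcript start) were on hand for 6 of the 9 members, with 9 windows in all. CTTTGA, the core sequence that TCF and LEF factors bind, was searched on both strands, since the mutant stabilises their partner β-catenin. It was in 2 of the 9 windows, both of Pde1a, and in 5257 of all 32851 promoter windows. The longer CTTTGAT was in none of the 9 windows and in 3.73% of all windows. Both Pde1a windows with the core are shown with it in capitals, and the windows of Fstl4 and Hpse2, the members with the widest ratio and the most uneven split among mutant states, are shown as windows without it. Each is written 5′ to 3′ on the strand of its gene.
Pde1a, chr2:80128922-80129221, minus strand: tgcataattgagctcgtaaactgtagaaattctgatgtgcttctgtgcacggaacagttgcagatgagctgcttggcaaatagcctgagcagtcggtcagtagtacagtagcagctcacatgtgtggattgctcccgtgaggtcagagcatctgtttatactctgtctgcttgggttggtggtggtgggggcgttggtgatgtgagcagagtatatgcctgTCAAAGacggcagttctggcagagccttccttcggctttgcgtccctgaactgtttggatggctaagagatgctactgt
Pde1a, chr2:80129363-80129662, minus strand: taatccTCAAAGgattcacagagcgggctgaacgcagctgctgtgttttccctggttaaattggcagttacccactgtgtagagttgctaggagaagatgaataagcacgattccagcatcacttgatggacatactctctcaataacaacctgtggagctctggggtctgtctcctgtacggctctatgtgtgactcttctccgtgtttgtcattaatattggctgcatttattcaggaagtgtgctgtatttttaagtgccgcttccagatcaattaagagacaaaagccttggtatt
Fstl4, chr11:52764456-52764755, plus strand: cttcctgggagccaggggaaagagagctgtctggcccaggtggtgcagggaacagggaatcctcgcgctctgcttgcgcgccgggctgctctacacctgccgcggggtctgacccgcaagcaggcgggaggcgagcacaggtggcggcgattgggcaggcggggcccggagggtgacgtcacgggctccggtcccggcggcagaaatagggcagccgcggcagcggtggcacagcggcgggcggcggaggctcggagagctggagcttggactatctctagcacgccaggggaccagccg
Hpse2, chr19:43388306-43388605, minus strand: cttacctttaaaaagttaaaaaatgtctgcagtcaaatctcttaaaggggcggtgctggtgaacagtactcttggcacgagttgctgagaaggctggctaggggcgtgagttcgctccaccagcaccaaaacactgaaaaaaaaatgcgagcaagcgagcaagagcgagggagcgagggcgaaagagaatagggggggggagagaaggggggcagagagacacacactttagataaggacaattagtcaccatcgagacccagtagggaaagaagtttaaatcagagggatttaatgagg
The match stands 29 bases before the start in the first Pde1a window and 244 bases before it in the second, both in the orientation TCAAAG. GC content was 71.3% in the Fstl4 window and 48.7% in the Hpse2 window, against a median of 52.7% over all windows. A match is a description and not a binding site, and its absence says only that these letters are not in this window.

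To see which cells carried the 9 genes, cells of both libraries were clustered together with the members, the Wnt genes and other state genes left out. This gave 33 clusters, of which 18 could be named from marker genes and 15 stayed unnamed and are called by their leading genes. In 8 clusters the share of mutant cells was at least 5 times the share of control cells. These mutant-dominated clusters held 8138 mutant cells (52.2%) and 254 control cells (1.61%). The largest were a progenitor- or astroglial-like cluster led by Dapk2 and Gdf10 with 1980 mutant and 8 control cells, a cluster led by Cdkn1a and Twist2 with 1764 mutant and 0 control cells, and a cluster led by Sox17 and Neurog2 with 1667 mutant and 40 control cells. The others were led by Ndst4 and Tfap2d (1321 mutant and 147 control cells), by the mitotic genes Ccnb2 and Kif20a (564 and 37), by Il1rapl2 and Runx3 (367 and 1), by Cnmd and Shisa3 (314 and 21, progenitor- or astroglial-like) and by Olfm3 and Eya4 (161 and 0). Just under the 5-fold limit stood a cluster led by Snhg11 and Gad2, with 1283 mutant and 285 control cells, and a small cluster led by Thsd4 and Grip1os2 had 146 mutant and 253 control cells. The mutant-dominated clusters gave 49.2% of all UMIs of the mutant library, and between 75.1% (Pcdh15) and 89.1% (Hpse2) of the mutant UMIs of each member.

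The secreted members were split unevenly among these states. Fstl4 was at 2036 CPM (2015 to 2057) in the Cdkn1a and Twist2 cluster, which alone gave 41.0% of its mutant UMIs. It was between 684 and 748 CPM in the Sox17 and Neurog2, the Dapk2 and Gdf10 and the mitotic clusters, at 506 CPM in the Il1rapl2 and Runx3 cluster and at 186 CPM in the Olfm3 and Eya4 cluster. It was near the level of cells that should lack it in the other two mutant-dominated clusters, at 28.8 CPM in the Ndst4 and Tfap2d cluster and 14.7 CPM in the Cnmd and Shisa3 cluster, against 45.1 CPM in mutant endothelial-like cells. Adamts19, which spans chr18:58836667-59054060 on the plus strand, had the same leading cluster, with 696 CPM in the Cdkn1a and Twist2 cluster and 399 CPM in the Dapk2 and Gdf10 cluster. It fell between 146 and 282 CPM in the Il1rapl2, Sox17, mitotic and Olfm3 clusters.

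Hpse2 had the opposite order in the 2 largest of these states. It was at 283 CPM (276 to 291) in the progenitor- or astroglial-like Dapk2 and Gdf10 cluster, which gave 66.3% of its mutant UMIs, and at 35.1 CPM (32.4 to 37.9) in the Cdkn1a and Twist2 cluster. The Olfm3 and Eya4 cluster had 97.6 CPM and the mitotic cluster 80.7 CPM. In the Sox17 and Neurog2 cluster it was at 14.8 CPM (15.6 CPM with haemoglobin UMIs left out, beside 57.7 CPM in mutant erythroid-like cells on that scale). This erythroid-like level was also above the 35.1 CPM of the Cdkn1a and Twist2 cluster, which is given with haemoglobin counted. The 2 clusters at the low end for Fstl4 were also lowest for Hpse2, at 3.23 CPM with Ndst4 and Tfap2d and 0.900 CPM with Cnmd and Shisa3.

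**Figure D2:**
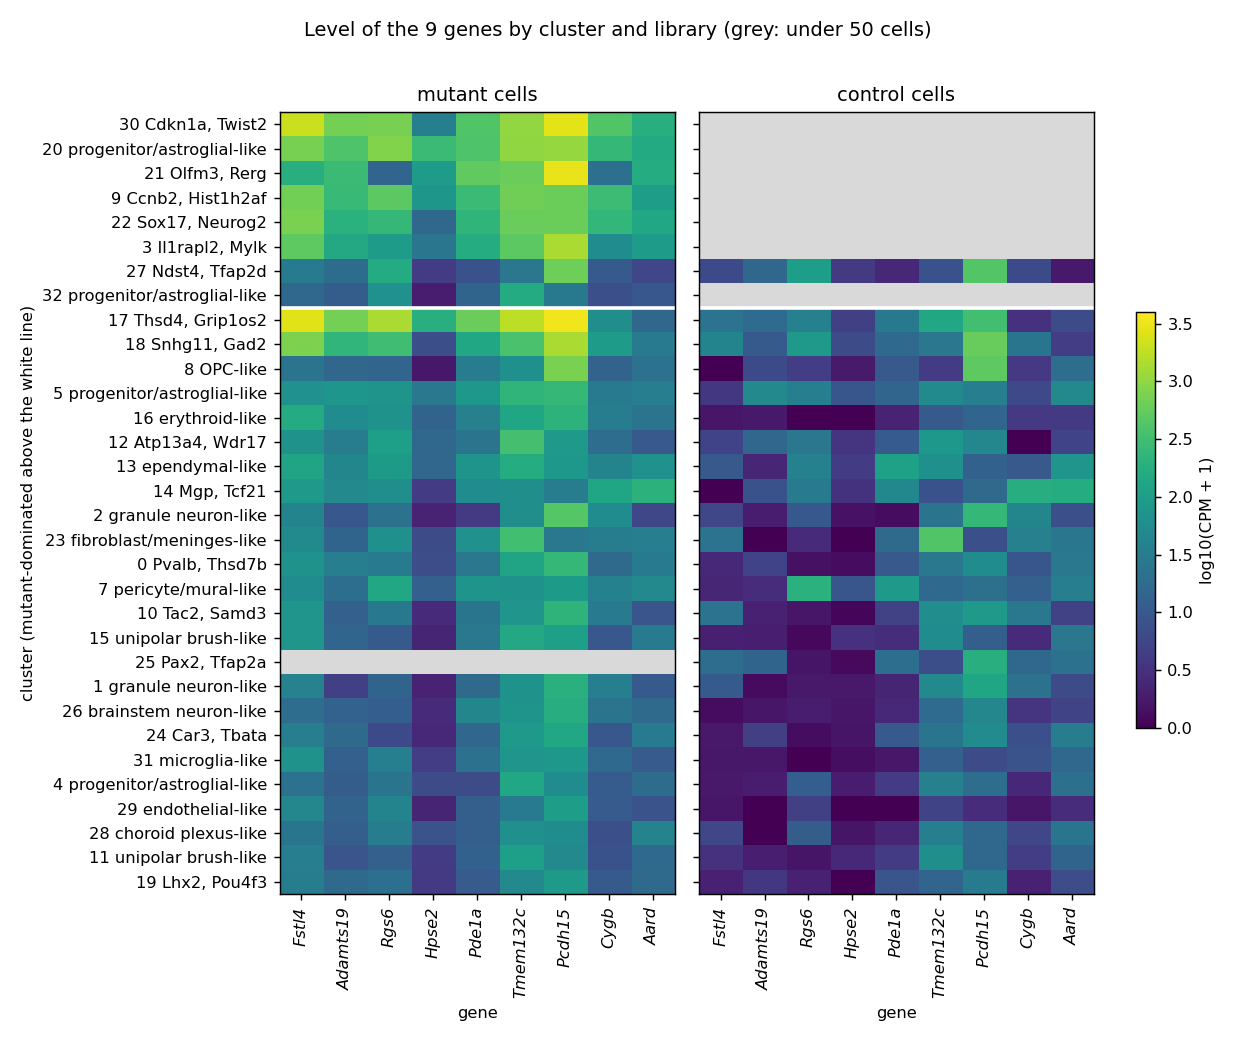
Level of each member (columns) in each cluster (rows, by number and name or first leading genes), as a colour scale of log10(CPM + 1), for mutant cells in the left panel and control cells in the right one, with the 8 mutant-dominated clusters above the white line and grey where a library had under 50 cells of a cluster. In mutant cells Hpse2 is at 283 CPM in cluster 20, led by Dapk2 and Gdf10, and at 35.1 CPM in cluster 30, led by Cdkn1a and Twist2, while Fstl4 is at 720 CPM and 2036 CPM there; cluster 32 is the one led by Cnmd and Shisa3.

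The 2 signalling members also differed in their leading states. Rgs6 was at 825 CPM (812 to 838) in the Dapk2 and Gdf10 cluster and 736 CPM (723 to 748) in the Cdkn1a and Twist2 cluster, and at 484 CPM in the mitotic cluster. It was at 13.8 CPM (8.57 to 21.2) in the Olfm3 and Eya4 cluster, under the 41.4 CPM of mutant endothelial-like cells. Pde1a was highest in that same Olfm3 and Eya4 cluster, at 531 CPM (495 to 569), followed by 422 CPM in the Cdkn1a and Twist2 cluster and 402 CPM in the Dapk2 and Gdf10 cluster. In the Ndst4 and Tfap2d cluster Rgs6 was still at 164 CPM, with a UMI in 23.9% of cells thinned to 3000 UMIs, and Pde1a was at 7.20 CPM.

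Of the membrane members, Tmem132c was present in 6 of these states at levels within a narrow span. It was at 1039 CPM in the Cdkn1a and Twist2 cluster, 993 CPM in the Dapk2 and Gdf10 cluster and 488 to 649 CPM in the mitotic, Sox17, Olfm3 and Il1rapl2 clusters. Pcdh15 had another order. It was at 2999 CPM (2912 to 3087) in the Olfm3 and Eya4 cluster, 2796 CPM (2772 to 2821) in the Cdkn1a and Twist2 cluster, 1369 CPM in the Il1rapl2 and Runx3 cluster and 1409 CPM in the Snhg11 and Gad2 cluster. In the Ndst4 and Tfap2d cluster it was at 644 CPM in mutant cells, against 437 CPM in the 147 control cells there.

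The 2 short members had patterns of their own. Cygb was at 415 CPM (406 to 425) in the Cdkn1a and Twist2 cluster, between 240.2 and 292 CPM in the Sox17, Dapk2 and mitotic clusters, and at 19.8 CPM (13.3 to 28.2) in the Olfm3 and Eya4 cluster, where Aard was at 170.1 CPM (150.0 to 192). Aard was at 182 CPM in the Cdkn1a and Twist2 cluster, 157 CPM in the Dapk2 and Gdf10 cluster and 138 CPM in the Sox17 and Neurog2 cluster. Its highest level in mutant cells, 205 CPM (183 to 229), was however in a cluster led by Mgp and Tcf21 that both libraries held. That interval overlapped the one of the Cdkn1a and Twist2 cluster (176 to 188).

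The Thsd4 and Grip1os2 cluster stood apart for 4 of the 7 long members. Its 146 mutant cells had the highest level of Fstl4 (2762 CPM), Rgs6 (1409 CPM), Tmem132c (1738 CPM) and Pcdh15 (3284 CPM) of all clusters of at least 50 mutant cells. Adamts19 at 709 CPM overlapped the Cdkn1a and Twist2 cluster, Pde1a at 597 CPM (563 to 631) overlapped the Olfm3 and Eya4 cluster, and Hpse2 at 181 CPM (163 to 201) was below the Dapk2 and Gdf10 cluster. The short members Cygb and Aard were at 60.0 and 15.4 CPM. Ribosomal protein genes took 2.69% of the UMIs of these mutant cells and 3.38% of those of the 253 control cells, against 12.7% and 15.5% over the whole mutant and control library, and mitochondrial genes took 0.670% and 0.735%. The part of these RNA properties in the member levels was not tested.

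At least 1 member was detected in 72.7% of mutant and 33.7% of control cells after thinning to 3000 UMIs. Each member had UMIs in control cells, so the 9 genes were not restricted to the mutant library. Some shared their highest control cluster: Fstl4 with Pcdh15, Adamts19 with Hpse2, and Cygb with Aard. Control clusters of at least 50 cells are given here. Fstl4 was highest in the Snhg11 and Gad2 cluster, at 40.8 CPM (33.8 to 49.0), and then in a cluster led by Tac2 and Eomes (22.8 CPM), in fibroblast- or meninges-like cells (22.5 CPM), in the Thsd4 and Grip1os2 cluster (22.2 CPM) and in a cluster led by Pax2 (18.2 CPM). The last 4 did not differ beyond counting error from their neighbours in this order. Adamts19 was at 47.9 CPM (43.7 to 52.5) in 1 of the progenitor- or astroglial-like clusters, led by Gabrb1 and Gria1, which gave 47.6% of its control UMIs. The next was the Thsd4 and Grip1os2 cluster at 16.95 CPM.

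Hpse2 reached 8.30 CPM (6.58 to 10.3) in that same Gabrb1 and Gria1 cluster and 8.07 CPM (4.70 to 12.9) in pericyte- or mural-like cells, and the 2 did not differ beyond counting error. Rgs6 was highest in pericyte- or mural-like cells, at 197 CPM (178 to 216), above 99.2 CPM in the Ndst4 and Tfap2d cluster and 85.2 CPM in the Snhg11 and Gad2 cluster. Pde1a was at 115 CPM (103 to 129) in ependymal-like cells and 87.8 CPM (75.6 to 101) in pericyte- or mural-like cells. The 2 signalling members thus had mural or ependymal cells as their highest normal types, in place of neural progenitors or neurons.

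Tmem132c was at 418 CPM (396 to 440.3) in fibroblast- or meninges-like control cells, above 138 CPM in the Thsd4 and Grip1os2 cluster. Pcdh15 was at 584 CPM in the Snhg11 and Gad2 cluster, 508 CPM in oligodendrocyte precursor-like cells, a cell type known to express it, 437 CPM in the Ndst4 and Tfap2d cluster and 248 CPM in granule neuron-like cells. Cygb and Aard were both highest in the Mgp and Tcf21 cluster, at 173 CPM (136 to 217) and 166 CPM (130 to 209), with 77 control cells. Cygb then stood at 44.4 CPM in granule neuron-like cells, which gave 30.2% of its control UMIs, and Aard at 73.2 CPM in ependymal-like cells and 48.6 CPM in the Gabrb1 and Gria1 cluster.

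Markers of 2 of these normal types were below their level over the control library in 6 mutant-dominated clusters. The 5 pericyte or mural markers summed to between 4.62 and 55.6 CPM in the 6 mutant-dominated clusters other than those led by Ndst4 and by Cnmd, against 90.03 CPM over the control library. The 6 fibroblast or meninges markers summed to between 20.2 and 47.0 CPM there, against 191 CPM over the control library. At 0 were 2 of the 5 pericyte or mural markers in the Olfm3 and Eya4 cluster and none in the other 5, and none of the fibroblast or meninges markers was at 0. The 9 neural progenitor or astroglial markers were not low throughout: they summed to 10387 CPM in the Dapk2 and Gdf10 cluster and 5523 CPM in the mitotic cluster, against 3259 CPM over the control library, and to between 567 and 1367 CPM in the other 4. In mutant cells of the Thsd4 and Grip1os2 cluster the pericyte or mural markers summed to 88.8 CPM and the fibroblast or meninges markers to 72.9 CPM. In the Cnmd and Shisa3 cluster these sums were 140 and 16.8 CPM, and in the Ndst4 and Tfap2d cluster 6.29 and 10.3 CPM. The part of cells of these normal types in the member levels was not tested.

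In several of these normal types the mutant library was at or below the control library. Rgs6 was at 143 CPM in mutant and 197 CPM in control pericyte- or mural-like cells, a ratio of 0.726 (0.624 to 0.844). Pde1a was at 70.8 CPM in mutant and 115 CPM in control ependymal-like cells, a ratio of 0.614 (0.498 to 0.753). Tmem132c was at 320.5 CPM in mutant and 418 CPM in control fibroblast- or meninges-like cells, a ratio of 0.767 (0.704 to 0.836). These 3 intervals lay below 1, while the same genes were at 825, 402 and 993 CPM in mutant cells of the Dapk2 and Gdf10 cluster. Aard was at 33.4 CPM in mutant cells against 48.6 CPM in control cells of the Gabrb1 and Gria1 cluster, a ratio of 0.688 (0.548 to 0.857). In the Mgp and Tcf21 cluster the intervals of the ratio reached 1 for Cygb (0.756, 0.576 to 1.002) and Aard (1.24, 0.951 to 1.62).

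**Figure D3:**
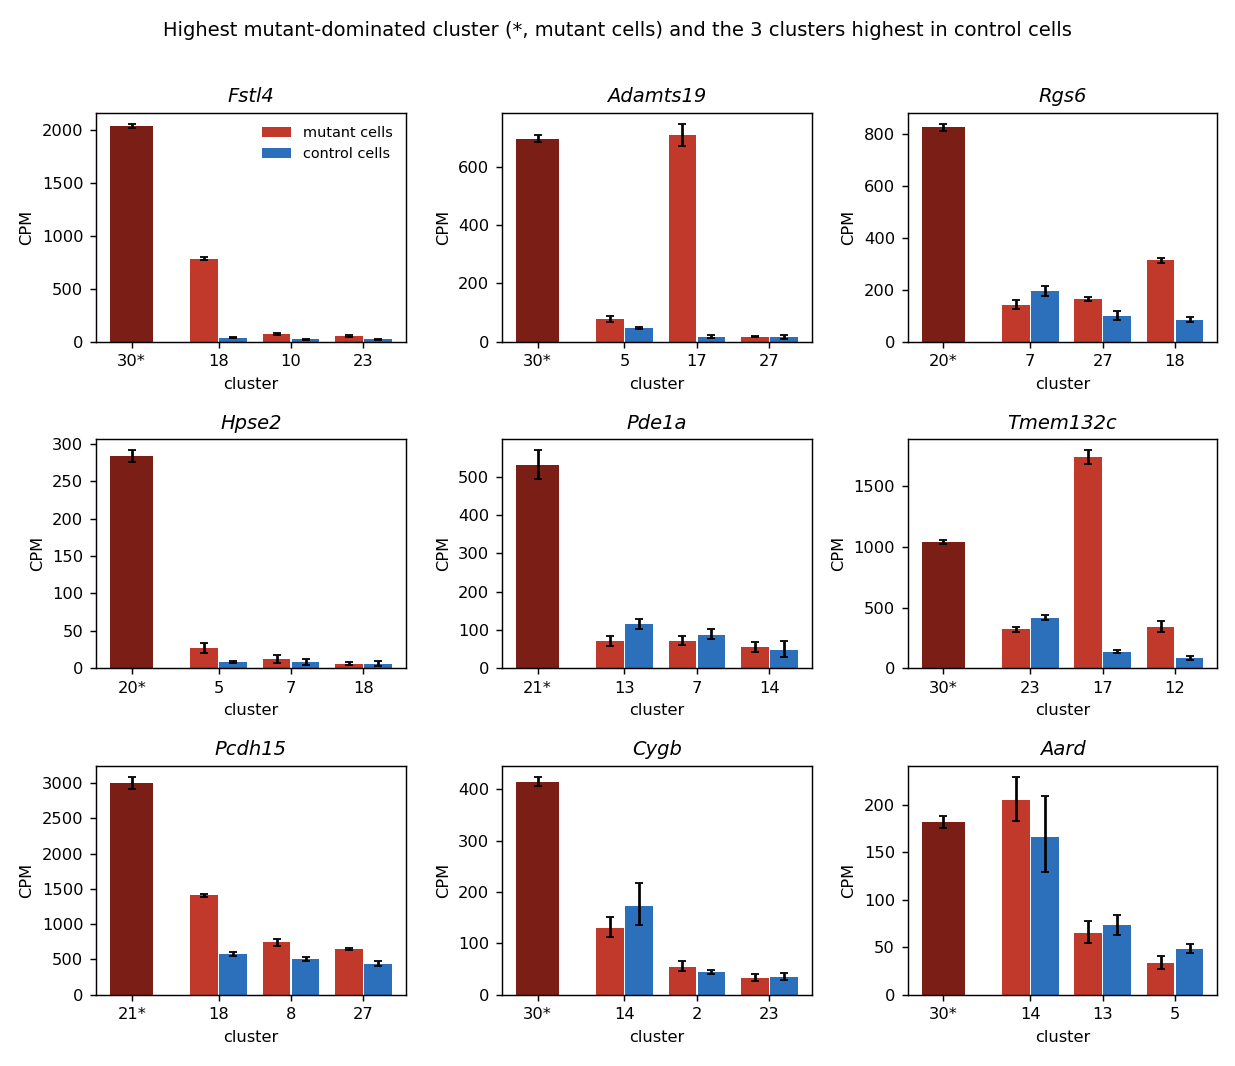
Level of each member as bars in CPM on a linear axis with exact 95% Poisson intervals: at the left, marked with an asterisk, mutant cells of the mutant-dominated cluster where it was highest, and then the 3 clusters where it was highest in control cells, among clusters of at least 50 cells in each library, with mutant beside control cells. Clusters are numbered as in the map of levels by cluster, so that 7 is pericyte- or mural-like, 13 ependymal-like, 14 led by Mgp and Tcf21 and 5 by Gabrb1 and Gria1, and Fstl4 is at 2036 CPM in mutant cells of cluster 30 and, in cluster 18, led by Snhg11 and Gad2, at 784 CPM in mutant against 40.8 CPM in control cells.

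Adamts19 and Hpse2 differed from that pattern. In the Gabrb1 and Gria1 cluster, their highest normal type, Adamts19 was at 77.7 CPM in mutant cells against 47.9 CPM in control cells (ratio 1.62, 1.38 to 1.90), and Hpse2 at 26.7 CPM in mutant cells against 8.30 CPM in control cells (ratio 3.21, 2.33 to 4.44). Pcdh15 was at 741 CPM in mutant and 508 CPM in control oligodendrocyte precursor-like cells (ratio 1.46, 1.35 to 1.58). Fstl4 in the Snhg11 and Gad2 cluster was at 784 CPM in mutant cells against 40.8 CPM in control cells, a ratio of 19.2, and this cluster gave 11.1% of its mutant UMIs.

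Over all cells outside the 8 mutant-dominated clusters, 8 of the 9 members were at least 2-fold higher in mutant than in control cells, against 3.05% of 9750 genes. The exception was Aard, at 28.55 CPM in mutant cells against 20.9 CPM in control cells, a ratio of 1.37 (1.30 to 1.44). These cells gave part of the library sums on which the members were chosen. Nothing is therefore read from this count of members or from those below. The values depended on where clusters were drawn. With 1 CPM added to both levels the log2 ratio of Fstl4, 5.20, became 4.08 with Leiden resolution 0.5 and 3.45 with resolution 2, that of Pcdh15, 2.24, became 1.57 and 1.08, and those of the other 7 members were lower too. Fstl4 was at 237 CPM in mutant cells against 5.49 CPM in control cells there (ratio 43.2), Hpse2 at 10.7 CPM in mutant cells against 1.44 CPM in control cells (ratio 7.46), and Cygb at 33.4 CPM in mutant cells against 11.5 CPM in control cells (ratio 2.89). Much of this came from 3 clusters, since the Snhg11 and Gad2, the Thsd4 and Grip1os2 and the erythroid-like cluster gave 50.2%, 27.5% and 7.96% of the Fstl4 UMIs outside. Without these 3, a choice made after seeing the data, 6 of 9 members were past 2-fold, and the share of all genes past it was not counted. Fstl4 was then at 48.1 CPM in mutant cells against 4.81 CPM in control cells. The ratio was 1.73 for Pcdh15, 1.69 for Cygb and 1.33 for Aard. In the 24 clusters with at least 50 cells in each library, the mutant CPM of Fstl4 was at least 2-fold higher in 24, that of Adamts19 in 22, of Rgs6 in 21, of Tmem132c in 19, of Pcdh15 and Pde1a in 18 each, of Cygb in 14, of Hpse2 in 13 and of Aard in 7. Between 0.317% and 9.78% of tested genes were past that fold in a single cluster.

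Cells that should lack these genes also held their UMIs in the mutant library. Leaving haemoglobin out, the 9 members summed to 3338 CPM in mutant and 135 CPM in control erythroid-like cells, beside 3002 CPM and 212 CPM over all kept mutant and control cells. The members made up like parts of that sum in both: Fstl4 took 22.1% in mutant erythroid-like cells and 19.9% over all kept mutant cells, and Pcdh15 took 28.5% and 30.6%. Mutant microglia- or macrophage-like cells were at 348 CPM, against 48.6 CPM in the control ones, and mutant endothelial-like cells at 277 CPM, against 13.9 CPM in the control ones. With haemoglobin left out, mutant erythroid-like cells had 739 CPM of Fstl4 (704 to 776), whose interval overlapped those of the Sox17 and Neurog2 (788 CPM), the Dapk2 and Gdf10 (755 CPM) and the mitotic cluster (705 CPM) on the same scale. Their 951 CPM of Pcdh15 and 318 CPM of Rgs6 were above the 690.4 and 176 CPM of the Ndst4 and Tfap2d cluster. Haemoglobin took 77.8% of the UMIs of mutant erythroid-like cells and at most 6.74% in a mutant-dominated cluster. The part of free RNA and of mixed droplets in the member levels was not tested, either inside or outside the mutant-dominated clusters. Their part in the 2-fold counts above was not tested either.

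A Wnt readout per cell was taken from 10 genes that were left out of the clustering (Apcdd1, Axin2, Lef1, Nkd1, Notum, Rnf43, Sp5, Tcf7, Wif1 and Znrf3), after each cell was thinned to 3000 UMIs. At least 2 UMIs of them were in 98.0% of cells of the Cdkn1a and Twist2 cluster and in 85.9% to 92.03% of cells of the mitotic, Il1rapl2, Olfm3, Sox17 and Dapk2 clusters. The share was 21.8% in the Cnmd and Shisa3 cluster and 8.68% in the Ndst4 and Tfap2d cluster, the 2 mutant-dominated clusters where most members were low. In the Snhg11 and Gad2 cluster it was 57.6% of mutant and 8.55% of control cells, and in the Thsd4 and Grip1os2 cluster 96.5% of mutant and 51.5% of control cells. Endothelial-like cells, in which Wnt signalling is active in normal brain, reached 69.0% in the mutant and 74.1% in the control library. At least 1 member was detected in 24.5% of these mutant cells and 2.53% of these control cells. Detection of 3 or more members was at 1.63% in the mutant and 0% in the control cells. The part of Wnt signalling in the member levels was not tested.

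Within the mutant-dominated clusters the 9 members, though none is on the Wnt list, were detected more often in cells with that readout. Fstl4 had a UMI in 56.35% of the 5482 thinned cells with 2 or more readout UMIs and in 6.11% of the 1097 cells with 0. For Pde1a the shares were 41.0% and 3.74%, for Hpse2 10.9% and 0.547%, for Cygb 31.0% and 2.92%, for Aard 22.8% and 2.37%, for Tmem132c 76.7% and 11.9% and for Adamts19 38.1% and 4.92%. As a ratio of the shares, the split was narrowest for Pcdh15 (59.4% and 39.9%) and Rgs6 (38.03% and 20.4%), the members also present in the Ndst4 and Tfap2d cluster. Of the 1097 cells with 0 readout UMIs, 917 (83.6%) belonged to that cluster and the Cnmd and Shisa3 cluster, so this comparison is largely one between clusters. The part of free RNA and of mixed droplets in this joint detection of readout and members was not tested. Control cells, 3513 with 2 or more readout UMIs and 6049 with 0, did not show the same split. Tmem132c was more frequent with the readout there (13.6% and 7.16%), while Rgs6 (1.48% and 2.53%) and Pcdh15 (11.3% and 14.3%) were less frequent. The intervals of Fstl4 (1.65% and 1.47%) and of the remaining members overlapped.

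The same split was made inside single clusters. The Snhg11 and Gad2 cluster had the most even numbers, with 635 mutant cells at 2 or more readout UMIs and 297 at 0. Fstl4 had a UMI in 62.8% of the first and 11.8% of the second, Adamts19 in 36.5% and 6.73%, Tmem132c in 57.6% and 14.1% and Cygb in 22.5% and 6.73%. Pcdh15 stood at 65.8% and 42.8%, and Aard at 9.13% and 3.70%. Hpse2, at 6.33 CPM in mutant cells of that cluster against 5.93 CPM in control cells, stood at 1.10% and 1.35%. In its leading cluster, the Dapk2 and Gdf10 one, Hpse2 had a UMI in 27.1% (24.9 to 29.4) of 1547 cells with the readout and 1.59% (0.0402 to 8.53) of 63 cells without it.

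Other members were also more often detected with the readout in that cluster, with Fstl4 at 40.98% and 3.17% and Pcdh15 at 52.9% and 12.7%. In the Sox17 and Neurog2 cluster, with 1297 and 49 cells, Fstl4 was at 57.4% and 14.3%, while Hpse2 was at 2.62% and 2.04%. In the Ndst4 and Tfap2d cluster, with 99 and 771 cells, Rgs6 was at 22.2% and 23.6% and Pcdh15 at 51.5% and 49.9%. The other members were rarer there and more frequent with the readout, among them Fstl4 at 10.1% and 5.19%, Tmem132c at 11.1% and 4.93% and Pde1a at 6.06% and 1.56%. The intervals overlapped for every member. In the Cnmd and Shisa3 cluster, with 66 and 146 cells, Fstl4 was at 1.52% and 4.11% and Tmem132c at 42.4% and 24.7%, both with overlapping intervals. All these shares compare cells of 1 library, which are not replicates. The part of free RNA and of mixed droplets in them was not tested.

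**Figure D4:**
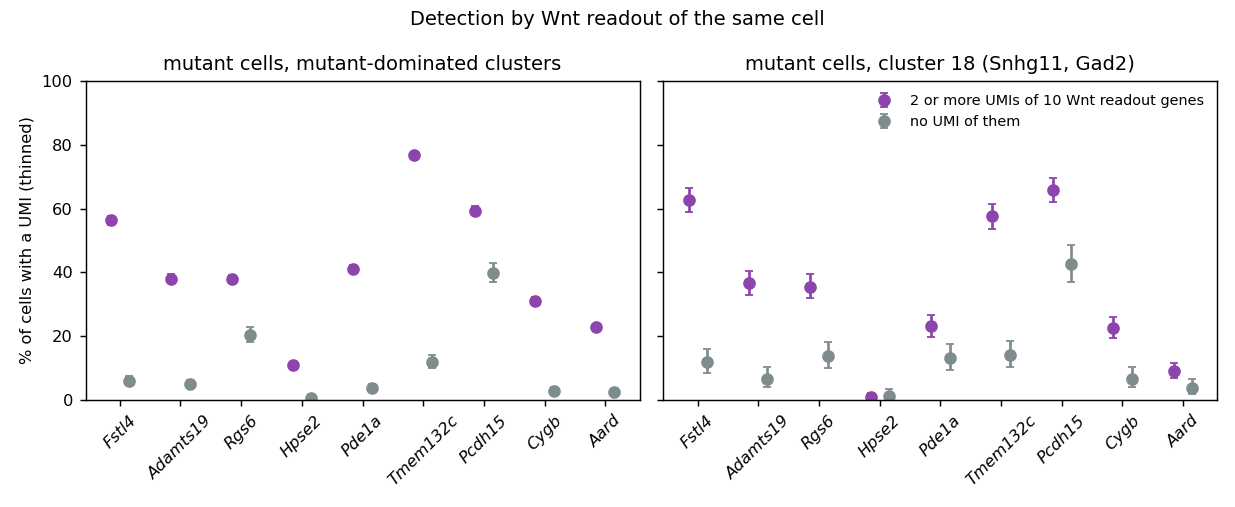
Share of thinned mutant cells with a UMI of each member, for cells with 2 or more UMIs of the 10 Wnt readout genes and cells with 0, for the mutant-dominated clusters and the Snhg11 and Gad2 cluster, with exact 95% binomial intervals. In the mutant-dominated clusters Fstl4 is at 56.35% and 6.11%, and Pcdh15 at 59.4% and 39.9%.

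Cycling cells, defined by a UMI of Mki67 or Top2a, differed less. Among mutant-dominated cells Fstl4 was detected in 48.3% of 927 cycling and 44.3% of 6239 other cells, and Aard in 18.02% and 18.1%. Tmem132c (73.7% and 60.9%), Adamts19 (36.1% and 29.75%) and Pde1a (38.4% and 31.9%) were more often detected in cycling cells, and Pcdh15 less often (48.3% and 55.5%). Of the 927 cycling cells 479 (51.7%) belonged to the mitotic cluster, so this comparison is largely one between clusters. Inside single mutant-dominated clusters the order for Pcdh15 varied. It was detected in 37.6% of cycling and 23.75% of other cells in the mitotic cluster and in 59.2% and 49.0% in the Dapk2 and Gdf10 cluster. The Sox17 and Neurog2 cluster had 48.6% and 43.7%, and the Il1rapl2 and Runx3 cluster 78.1% and 71.2%. Pcdh15 was not more frequent in cycling cells of the Cdkn1a and Twist2 cluster (80.2% and 81.0%) or the Olfm3 and Eya4 cluster (75% and 83.7%). The same held for the Ndst4 and Tfap2d cluster (38.1% and 51.0%) and the Cnmd and Shisa3 cluster (0% and 7.61%). The intervals were apart in the Dapk2 and Gdf10 cluster alone.

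The 9 genes were next counted together in single cells, each thinned to 3000 UMIs. Of 7166 mutant cells of the mutant-dominated clusters, 56.4% (55.2 to 57.5) held 3 or more members and 28.1% held 5 or more. Of 6412 other mutant cells, 13.7% held 3 or more and 4.93% held 5 or more. Of 13411 control cells, 0.686% (0.553 to 0.841) held 3 or more, and 0 held 5 or more, which allows a share of up to 0.0275%. The mean number of members per cell was 3.10 in the mutant-dominated clusters, 1.10 in other mutant cells and 0.400 in control cells. All 9 members were detected in 10 mutant-dominated cells (0.140%), and no control cell held more than 4.

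**Figure D5:**
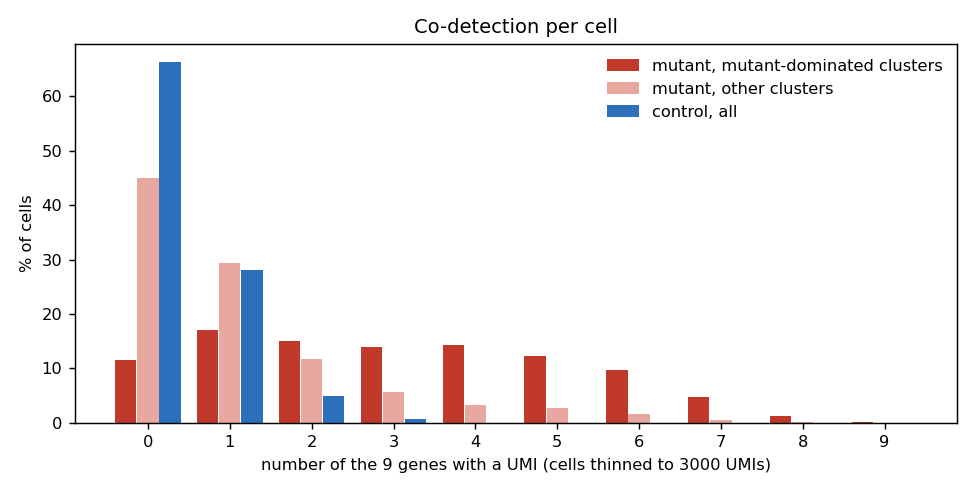
Share of thinned cells by the number of the 9 members detected, for mutant cells of the mutant-dominated clusters, other mutant cells and control cells. The first reach 9 members per cell, and 66.3% of control cells hold none.

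The background for this count came from cells that should lack the genes. Since haemoglobin fills most of an erythroid-like cell, cells were here thinned to 3000 UMIs other than haemoglobin, a choice made after seeing the data. Of mutant microglia- or macrophage-like cells 5.15% (1.69 to 11.6) held 3 or more members, and of mutant endothelial-like cells 1.10% (0.133 to 3.91), with medians of 7430 and 8361 such UMIs before thinning, beside 9163.5 in the mutant-dominated clusters. Only 168 of 490 mutant erythroid-like cells were deep enough, and 53.0% of them (45.1 to 60.7) held 3 or more. Control erythroid-like cells held 3 or more in 0 of 132, which allows up to 2.76%. With haemoglobin counted in the 3000 UMIs, the shares were 16.8% of mutant erythroid-like cells and 0 of 372 control ones. What the mutant erythroid-like droplets held besides erythroid RNA was not tested.

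The Ndst4 and Tfap2d cluster (4.11%) and the Cnmd and Shisa3 cluster (2.66%) did not exceed the microglia- or macrophage-like cells. The other 6 mutant-dominated clusters lay above the microglia- or macrophage-like and endothelial-like cells. Of these, the Cdkn1a and Twist2 cluster (90.8%, 89.3 to 92.2), the Olfm3 and Eya4 cluster (74.1%, 66.1 to 81.1) and the Dapk2 and Gdf10 cluster (68.8%, 66.5 to 71.01) also lay above the erythroid-like cells. The Sox17 and Neurog2 cluster (58.8%), the mitotic cluster (56.5%) and the Il1rapl2 and Runx3 cluster (55.99%) did not differ from the erythroid-like cells beyond counting error. Mutant cells of the Thsd4 and Grip1os2 cluster lay above all 3 kinds of cell, at 93.6% against 4.15% of its control cells. Those of the Snhg11 and Gad2 cluster, at 42.3% (39.3 to 45.3) against 9.44% of its control cells, lay above the microglia- or macrophage-like and endothelial-like cells and did not exceed the erythroid-like ones.

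Single members were detected in unequal shares of the leading states. In the Cdkn1a and Twist2 cluster Tmem132c had a UMI in 84.7% of thinned cells, Fstl4 in 81.3% and Pcdh15 in 81.0%, while Hpse2 had one in 3.83%. In the Dapk2 and Gdf10 cluster Tmem132c was in 81.3%, Pcdh15 in 50.1%, Pde1a in 44.4% and Hpse2 in 25.3%. Over all control cells the shares ran between 0.313% (Hpse2) and 13.1% (Pcdh15), and in mutant endothelial-like cells thinned without haemoglobin between 0.549% (Hpse2 and Aard) and 7.14% (Pcdh15). In the 168 mutant erythroid-like cells thinned in that way they ran between 5.95% (Hpse2) and 57.7% (Tmem132c). Before thinning, Fstl4 had a UMI in 40.5% of all mutant cells and 3.51% of all control cells.

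Pairs of members were compared by the correlation of their log UMIs across cells, as a description, since the cells share a library and clusters. Over the 7166 thinned mutant-dominated cells all 36 pairs had a positive coefficient, with a median of 0.198 and a range between 0.0215 (Rgs6 and Aard) and 0.462 (Fstl4 and Tmem132c). Tmem132c was detected in 82.9% of the cells with Fstl4 and 46.05% of the cells without it. Cygb was in 39.1% and 12.75%, and Adamts19 in 46.7% and 17.5%. Hpse2 was nearly as frequent in cells with Fstl4 (9.71%) as in those without (7.74%).

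Part of this joint detection was between states, as the coefficients were smaller within most single clusters. The median was 0.105 within the Cdkn1a and Twist2 cluster, where the range ran between −0.0921 (Fstl4 and Aard) and 0.404 (Fstl4 and Rgs6). It was 0.101 within the Sox17 and Neurog2 and the Il1rapl2 and Runx3 clusters, 0.179 within the Dapk2 and Gdf10 cluster and 0.186 within the mitotic cluster, the 2 in which all 36 pairs were positive. It was 0.00977 within the Ndst4 and Tfap2d cluster and −0.0124 within the Cnmd and Shisa3 cluster. Most single coefficients were weak, and in counts this sparse none is read as a finding.

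Across 32 clusters of at least 100 cells of both libraries, levels of most members followed each other. The Pearson correlation of log2(CPM + 1) was 0.916 for Adamts19 and Pde1a and 0.915 for Fstl4 and Adamts19, and lowest for Pcdh15 and Aard (0.343). The genes nearest to Fstl4 were Adamts19, Wif1 (0.901) and Mtmr12 (0.887), and those nearest to Adamts19 were Pde1a, Fstl4 and Wif1 (0.906). Pde1a was nearest to Adamts19, Ltbp1 (0.892) and Fstl4, and Hpse2 to Adamts19 (0.878), Pde1a (0.865) and Dapk2 (0.856). Tmem132c was nearest to its antisense gene Tmem132cos (0.988), then Cep112 (0.898) and Axin2 (0.865), a feedback inhibitor of Wnt signalling. The remaining members had mostly other neighbours: Lgr6 (0.834), Dapk2 and Fstl4 for Rgs6, Plppr5 (0.868), Tnr and Rbfox1 for Pcdh15, Prcd (0.856), Cyp1b1 and Pycr1 for Cygb, and Gss (0.809), Isoc1 and Erich2 for Aard. The clusters include the 8 mutant-dominated ones, and the members were chosen as high in the mutant library. That choice favours agreement among them and with other genes high in that library, so nothing is read from it. These clusters share 2 libraries, so the coefficients are descriptions.

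Some genes overlap a member on the genome, among them 2 of these neighbours, Tmem132cos and Prcd. Tmem132cos lies opposite Tmem132c, at 44.9 CPM in the mutant library against 4.34 CPM in the control one. Prcd overlaps exons of Cygb on the opposite strand, at 20.9 CPM in the mutant library against 3.36 CPM in the control one. Gm15398 lies within Pcdh15 on the opposite strand, at 85.2 CPM in the mutant library against 3.91 CPM in the control one. As a Gm-numbered gene it was left out of the search for neighbours. The sources used here do not say whether counting used strand, so reads of these gene pairs could be split between them and their separate levels are uncertain.

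Most relatives of the members were not past 2-fold between libraries, though the shares of them that were higher or lower lay above those over all genes. The relatives were listed with earlier results of these data known, so nothing is read from these shares. Of 78 listed relatives and partners 54 reached 10 CPM in at least 1 library, and 11 of these (against 4.19% of all genes) were at least 2-fold higher and 3 (against 2.06%) at least 2-fold lower, with a median log2 ratio of 0.09, beside 0.03 over all genes and 4.01 over the members. Among 10 ADAMTS genes none was 2-fold higher, Adamts17 was lower (4.93 CPM in mutant cells against 12.98 CPM in control cells), and the most abundant, Adamts6, was at 122 CPM in mutant cells against 114 CPM in control cells. Of 5 follistatin-like genes Fst, encoding the activin-binding protein follistatin, was higher, at 54.5 CPM in mutant cells against 10.4 CPM in control cells, and Sparcl1, the most abundant, was at 266 CPM in mutant cells against 383 CPM in control cells. Among the R7 regulators Rgs9 was higher (51.8 CPM in mutant cells against 7.39 CPM in control cells) and Rgs7 stood at 40.2 CPM in mutant cells against 39.0 CPM in control cells.

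The enzymes of heparan sulphate, the ligand of heparanase 2, held 3 higher genes of 13: Ndst4, an N-deacetylase and N-sulphotransferase (132 CPM in mutant cells against 24.9 CPM in control cells), the sulphatase Sulf2 (42.9 and 15.5 CPM) and Hs6st1 (38.9 and 14.5 CPM), while Ext1, the most abundant, was at 274 CPM in mutant cells against 174 CPM in control cells. Phosphodiesterases went both ways. Pde3a (90.8 CPM in mutant cells against 42.6 CPM in control cells) and Pde7b (50.2 and 20.4 CPM) were higher, while Pde1c, another calmodulin-dependent phosphodiesterase, was at 71.4 CPM in mutant cells against 332 CPM in control cells and Pde2a at 4.12 and 15.1 CPM. Pde4d was the most abundant, at 335 CPM in mutant cells against 265 CPM in control cells. Tmem132d was higher among 3 TMEM132 genes (42.5 CPM in mutant cells against 7.79 CPM in control cells). Of 8 measurable Usher and protocadherin genes, Pcdh19 (45.9 CPM in mutant cells against 10.8 CPM in control cells), Pcdh8 (13.5 and 3.89 CPM) and Pcdh9 (997 and 469 CPM) were higher, and the other globins Ngb, Mb and Adgb were all under 10 CPM.

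Each pool held animals of both sexes, which gave a view of different animals within a library. Cells with Xist UMIs and no Y-linked UMI numbered 4371 in the mutant and 5300 in the control library, and cells with Y-linked and no Xist UMIs 7232 and 6704. All 9 members were at least 2-fold higher in mutant than in control cells in both sets. Of all genes at 10 CPM or more, 405 were past that fold in the Xist set and 500 in the Y-linked set. The number of genes tested was not recorded for each set, so the counts are not given as shares. Both sets are part of the libraries on which the members were chosen, so nothing is read from the count of members. Fstl4 was at 528 CPM in mutant cells of the Xist set and 536 CPM in those of the Y-linked set, against 4.84 and 5.34 CPM in control cells. Hpse2 was at 40.0 CPM in mutant cells of the Xist set and 54.9 CPM in those of the Y-linked set, and Pcdh15 at 913 and 804 CPM. The level in the mutant library was thus present in at least 1 animal of each sex, and which of the 3 pooled samples gave which cells is not known.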

How the data were processed

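Whole cerebella of mutant and control mouse embryos were measured by droplet single-cell RNA sequencing, with 3 samples pooled into 1 library per genotype, per the labels' protocols. The authors deposited unnormalized UMI counts per gene and barcode, made with Cell Ranger 7.0.1 on mm10 per the submitters' processing notes; the sources used here do not give the annotation or say whether introns or strand were counted. The members and lists were chosen with earlier results of these data known. The genes named are the 9 members, relatives past 2-fold with the most abundant of each family, and the 3 nearest genes per member over clusters.

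Barcodes with at least 1000 UMIs, 500 genes and at most 10% mitochondrial UMIs were kept. Scrublet, run in scanpy 1.11.5, marked 898 mutant (5.45%) and 1019 control (6.06%) cells as doublets, which were removed. Cells of both libraries were clustered together (2000 variable genes, 30 principal components, 15 neighbours, Leiden resolution 1). The clustering used no member, Wnt or state gene and no sex-linked, haemoglobin, ribosomal or mitochondrial gene. A cluster was named when at least 3 markers of a fixed list stood out in it, and names rebuilt this way may differ from the study's. Counts were summed per cluster or library and given as CPM, with exact Poisson intervals, and ratios with exact conditional binomial intervals. Folds use a pseudocount of 1 CPM and genes at 10 CPM or more. For shares of cells, each cell was thinned at random to 3000 UMIs, which left out 2006 mutant and 2382 control cells. UMI depth was alike in both libraries. Of 32285 gene identifiers 32158 matched GENCODE M21. The fold and interval steps were tested on simulated data. Alternatives covered filters, doublets, scaling, pseudocount, cluster resolution, thinning and detection limits.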

Additional observations from a re-analysis of the deposited data

Results flagged for a closer look

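In 4 cases a member was lower in mutant than in control cells of a normal type while it was higher in most other clusters that both libraries held. The ratio of mutant over control was 0.614 for Pde1a in ependymal-like cells, 0.688 for Aard in the progenitor- or astroglial-like cluster led by Gabrb1 and Gria1, 0.726 for Rgs6 in pericyte- or mural-like cells and 0.767 for Tmem132c in fibroblast- or meninges-like cells. The difference between these clusters and the others was not tested, since each genotype had 1 library.

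Barcodes that were not kept also held the members. In 3646 mutant barcodes with over 50% haemoglobin UMIs the 9 members summed to 917 CPM of the UMIs other than haemoglobin, against 92.5 CPM in 3400 such control barcodes.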

How the results depend on the processing

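All 9 members stayed at least 2-fold higher in the mutant library under each of the 8 alternatives, which was built into their selection. The count of genes past 2-fold, 410, became 242 with a pseudocount of 10 CPM and lay between 354 and 598 under the other alternatives. Outside the mutant-dominated clusters the count of 8 members became 7 with Leiden resolution 2 (Cygb at a log2 ratio of 0.90), 7 with a pseudocount of 10 CPM (Hpse2 at 0.86) and 6 without the erythroid-like, the Thsd4 and Grip1os2 and the Snhg11 and Gad2 clusters (Pcdh15 at 0.78, Cygb at 0.71). The log2 ratio of Hpse2 there, 2.27, was 1.66 without the Thsd4 and Grip1os2 cluster. No member reversed. The share of mutant-dominated cells with 3 or more members, 56.4%, followed depth and detection limit: 49.4% when thinned to 2000 UMIs, 66.7% when thinned to 6000, 69.96% without thinning and 36.9% when 2 UMIs were needed. Control cells stood at 0.295%, 2.05%, 5.78% and 0.0149% under these settings. It was 57.3% with haemoglobin left out before thinning, added after seeing the data, 58.9% with Leiden resolution 2, 66.2% when mutant-dominated meant 10 times the control share, 53.3% in cells with Xist and no Y-linked UMI and 60.2% in cells with Y-linked and no Xist UMI; the cause of these was not tested. No paired analysis was possible because each genotype had 1 library. Pooling hides the spread between animals, so no difference between genotypes has a replicate check.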
